A study of Mus musculus with 18 samples.

Results

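CXCR3 is a chemokine receptor, and CXCL9, CXCL10 and CXCL11 are the chemokines that bind it. The 4 genes Cxcl9, Cxcl10, Cxcl11 and Cxcr3 were taken by symbol from the 37620 Ensembl gene IDs counted in every library, and each symbol matched 1 ID. All 4 were expressed highly enough to be tested, among 14849 genes that were. The counts come from 18 bulk libraries of stranded mRNA from mouse melanomas. On day 0, C57BL/6 mice received 100000 MO4 cells subcutaneously in each hindlimb; MO4 is a B16F10 melanoma line from the same strain that makes ovalbumin. RNA of the tumours was taken on day 11.

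Each of 6 groups held 3 libraries. In the IFN-alpha-pMC groups, cells labelled IFN-α-iPSC-pMCs were given next to the right tumour, 1000000 of them on each of days 5, 6 and 7, and the right tumour (right IFN-alpha-pMC) and the distant left tumour (left IFN-alpha-pMC) were sequenced. The pMC groups (right pMC and left pMC) received iPSC-pMCs, derived from induced pluripotent stem cells, by the same schedule. The control groups (right control and left control) received no cells, although the right control is also labelled a treated tumour. The labels spell out neither pMC nor what IFN-α marks, and give neither the age of the mice nor the species of the injected cells. RNA of injected cells still present on day 11 cannot be told apart from RNA of the tumour and host. The labels also do not say whether samples came from separate animals, or whether equal numbers mark one mouse. The p-values below therefore describe only the spread among the libraries, part of which may be technical.

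The labelled tissue was checked against its markers: the summed level of 8 melanocyte genes was 28875 to 43695 CPM, that is, per 1000000 counts of the library, over the 18 libraries. Library totals ran between 14346091 and 23430259 counts assigned to genes. Skeletal muscle genes varied widely, and their summed level was 1837 to 3611 CPM in right IFN-alpha-pMC tumours, 78.2 to 195 CPM in right pMC tumours and 27.9 to 997 CPM in right control tumours. On the left it was 655 to 1341 CPM in IFN-alpha-pMC tumours, 8.89 to 103 CPM in pMC tumours and 7.85 to 327 CPM in control tumours. Library 3 of right IFN-alpha-pMC, library 1 of left IFN-alpha-pMC and library 3 of right control stood apart from their groups in an earlier description of these data. Results that depend on these 3 libraries are given below with and without them.

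CXCR3 is a receptor coupled to inhibitory G proteins and is found mainly on activated T cells and NK cells, which move along gradients of its ligands. The ligands are made by macrophages, dendritic cells, endothelium, fibroblasts and tumour cells after interferon: Cxcl9 responds chiefly to interferon gamma, whereas Cxcl10 also responds to type I interferon and to NF-kappa-B. In C57BL/6 mice Cxcl11 carries a frameshift, so its transcript encodes no working chemokine, and RefSeq lists the gene as a transcribed pseudogene. Its RNA is therefore described here as an interferon-responsive transcript, not as a ligand that could act.

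The promoters of the ligands and of the receptor are shown because the ligands were called higher on both sides and the receptor on the right alone. RefSeq (GRCm38.p6) gave the 250 bases before the start for 3 of the 4 genes. The windows are chr5:92328080-92328329 for Cxcl9, chr5:92348890-92349139 for Cxcl10 and chrX:101734148-101734397 for Cxcr3, all on the minus strand. They are written 5′ to 3′, with the matches to the motifs named below in capitals.
Cxcl9: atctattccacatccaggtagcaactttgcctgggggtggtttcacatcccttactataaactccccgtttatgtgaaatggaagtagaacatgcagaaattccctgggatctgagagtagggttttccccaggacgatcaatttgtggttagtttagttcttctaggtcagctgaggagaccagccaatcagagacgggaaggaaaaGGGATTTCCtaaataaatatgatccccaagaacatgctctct
Cxcl10: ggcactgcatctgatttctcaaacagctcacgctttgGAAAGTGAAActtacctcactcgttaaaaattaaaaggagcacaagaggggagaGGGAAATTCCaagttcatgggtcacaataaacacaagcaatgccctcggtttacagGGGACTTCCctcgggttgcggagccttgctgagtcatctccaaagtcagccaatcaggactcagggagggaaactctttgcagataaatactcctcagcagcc
Cxcr3: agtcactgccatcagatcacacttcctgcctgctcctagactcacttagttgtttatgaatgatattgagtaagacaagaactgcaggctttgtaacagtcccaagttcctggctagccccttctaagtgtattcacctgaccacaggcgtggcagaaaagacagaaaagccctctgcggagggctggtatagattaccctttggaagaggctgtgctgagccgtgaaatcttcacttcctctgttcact
Motifs were searched on both strands. The interferon-stimulated response element, searched as GAAA and GAAA with 2 bases between, was present in 2.98% of 32851 promoter windows of the same length. The NF-kappa-B site was searched as GGGA and TTCC with 2 bases between, present in 1.21% of windows, and as GGGANTTCC, present in 1.43%. No match overlapped another. The Cxcl10 window held GAAAGTGAAA starting 213 bases before the start, GGGAAATTCC at 159 bases and GGGACTTCC at 103 bases. The Cxcl9 window held GGGATTTCC at 42 bases. The interferon gamma-activated site TTCNNNGAA, present in 7.02% of windows, and the T-box motif AGGTGNGA, present in 4.66%, had no match in the 3 windows, and the Cxcr3 window had no match to any motif searched. These are matches of letters only.

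Cxcl9, the ligand induced chiefly by interferon gamma, was higher in IFN-alpha-pMC tumours on both sides. It had 311, 270.5 and 235 CPM in right IFN-alpha-pMC tumours, 104, 110.1 and 90.8 CPM in right pMC tumours, and 73.0, 96.6 and 135 CPM in right control tumours. In left tumours it had 208, 392 and 264 CPM with IFN-alpha-pMC, 97.8, 85.6 and 85.3 CPM with pMC, and 73.8, 96.6 and 89.6 CPM in control tumours. Every IFN-alpha-pMC library lay above every library of the other 4 groups, and the right and left IFN-alpha-pMC groups overlapped. The fold change, estimated by edgeR across all groups, was 1.42 ± 0.24 on the log2 scale (SE) in right IFN-alpha-pMC over right control, a 2.68-fold difference (adjusted p = 0.000549). In left IFN-alpha-pMC over left control it was 1.73 ± 0.24, a 3.33-fold difference (adjusted p = 0.00187). Against the pMC groups the log2 fold changes were 1.42 ± 0.24 on the right (adjusted p = 0.000608) and 1.69 ± 0.24 on the left (adjusted p = 0.00272).

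Cxcl10, the ligand that type I interferon also induces, reached the highest CPM of the 4 genes in every group. It had 559, 495 and 443 CPM in right IFN-alpha-pMC tumours, 154, 149.6 and 103 CPM in right pMC tumours, and 137, 110.0 and 164 CPM in right control tumours. In left tumours it had 225, 471 and 337 CPM with IFN-alpha-pMC, 129, 108 and 105 CPM with pMC, and 123, 140.3 and 113 CPM in control tumours. As for Cxcl9, all 6 IFN-alpha-pMC libraries lay above the other 12, and the IFN-alpha-pMC groups of the 2 sides overlapped. Its log2 fold change was 1.87 ± 0.24 in right IFN-alpha-pMC over right control, 3.65-fold (adjusted p = 7.17e-05), and 1.46 ± 0.24 in left IFN-alpha-pMC over left control, 2.75-fold (adjusted p = 0.00538). Over the pMC groups it was 1.88 ± 0.24 on the right (adjusted p = 6.75e-05) and 1.60 ± 0.24 on the left (adjusted p = 0.00435).

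Art3, an ADP-ribosyltransferase gene on the opposite strand, shares 133 bases, or 5.91%, of the Cxcl10 exons in GENCODE M21. Since the strand setting of the counting is not given in the sources used here, reads from those bases cannot be assigned to Cxcl10 or Art3. Art3 had a log2 fold change of 0.47 ± 0.16 in right IFN-alpha-pMC over right control (adjusted p = 0.0826) and of 0.09 ± 0.17 in left IFN-alpha-pMC over left control (adjusted p = 0.70), and its level averaged 32.0 ± 4.22 CPM in right IFN-alpha-pMC and 23.1 ± 3.04 CPM in right control tumours (SD, n = 3 each).

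Cxcl11 was the least abundant of the ligands, and its transcript rose with the other ligands. It had 6.70, 6.40 and 3.95 CPM in right IFN-alpha-pMC tumours, 0.995, 2.01 and 0.963 CPM in right pMC tumours, and 0.823, 0.916 and 1.44 CPM in right control tumours. In left tumours it had 4.59, 4.47 and 3.10 CPM with IFN-alpha-pMC, 0.859, 1.25 and 0.653 CPM with pMC, and 0.564, 1.01 and 0.947 CPM in control tumours. Again no IFN-alpha-pMC library overlapped the other groups. The log2 fold change was 2.43 ± 0.36 in right IFN-alpha-pMC over right control, 5.40-fold with a 95% interval of 3.18 to 9.16 (adjusted p = 0.000205). It was 2.27 ± 0.38 in left IFN-alpha-pMC over left control, 4.81-fold with a 95% interval of 2.78 to 8.34 (adjusted p = 0.00538). Cxcl11 had 10 to 144 counts a library, whose counting error is between 8.33% and 31.6%. Its spread among the 3 libraries of a group was 20.5% to 45.1% of the mean (coefficient of variation). Against pMC the log2 fold changes were 2.08 ± 0.35 on the right (adjusted p = 0.000731) and 2.15 ± 0.37 on the left (adjusted p = 0.00937), and the left one was past the threshold in 10 of 14 alternative analyses (adjusted p up to 0.0763). It was lost without library 1 or library 3 of left pMC (adjusted p = 0.0625 and 0.0571), without library 2 of left IFN-alpha-pMC (adjusted p = 0.0513), or with a skeletal muscle covariate. Gm2673, on the opposite strand, shares 41.7% of the Cxcl11 exons in GENCODE M21 and had 0 counts in every library. Since the strand setting of the counting is not given, reads from the shared bases may have been left out of both genes. The Cxcl11 counts, and its levels per length below, could then be too low.

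**Figure D1:**
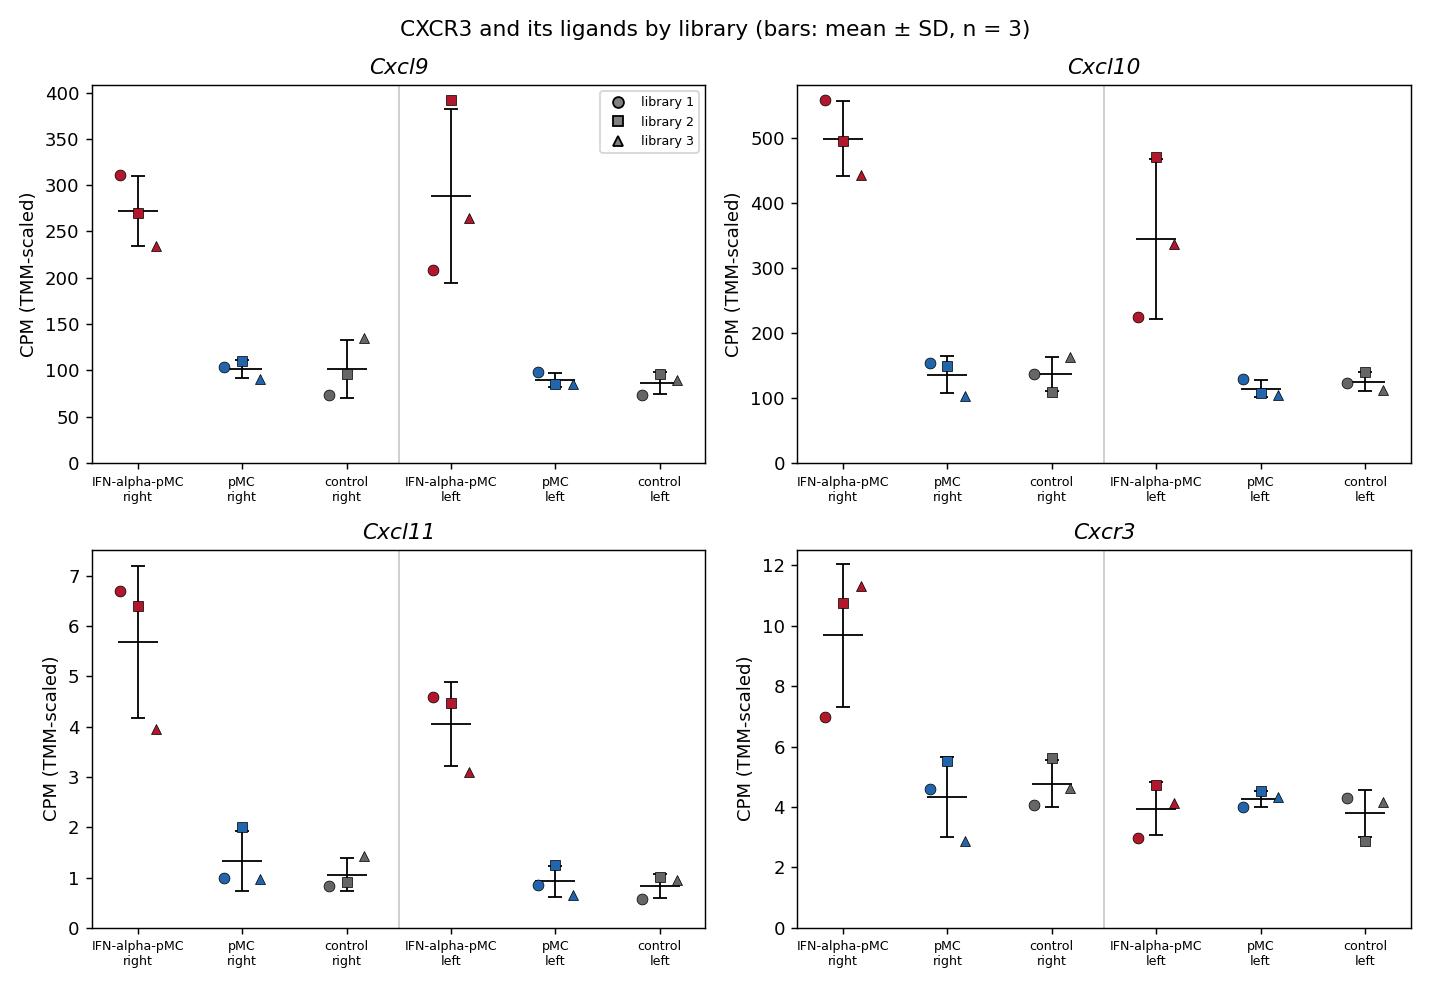
Level of each gene (TMM-scaled CPM, linear axis from 0) in the 18 libraries, by treatment and side, with bars for the mean ± SD of 3 libraries and symbols for the library number. The 3 ligands are high in IFN-alpha-pMC tumours on both sides, while Cxcr3 has 6.97 to 11.3 CPM in right IFN-alpha-pMC against 2.88 to 5.62 CPM in the other 5 groups.

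Cxcr3, the receptor, was higher in right IFN-alpha-pMC tumours than in the other right tumours, and not detectably so in left ones. It had 6.97, 10.8 and 11.3 CPM in right IFN-alpha-pMC tumours, 4.59, 5.51 and 2.89 CPM in right pMC tumours, and 4.07, 5.62 and 4.62 CPM in right control tumours. In left tumours it had 2.98, 4.72 and 4.13 CPM with IFN-alpha-pMC, 3.99, 4.52 and 4.31 CPM with pMC, and 4.29, 2.88 and 4.18 CPM in control tumours. Right IFN-alpha-pMC did not overlap any other group, and the other 5 groups overlapped their neighbours in the order of the means. Its log2 fold change was 1.02 ± 0.26 in right IFN-alpha-pMC over right control, 2.03-fold with a 95% interval of 1.38 to 2.97 (adjusted p = 0.0167), and 1.16 ± 0.26 in right IFN-alpha-pMC over right pMC, 2.23-fold (adjusted p = 0.00749). On the left it was 0.06 ± 0.27 in IFN-alpha-pMC over control (adjusted p = 0.871), with a 95% interval of 0.703- to 1.55-fold, and -0.11 ± 0.27 over pMC (adjusted p = 0.801). Cxcr3 had 39 to 287 counts a library.

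The call of Cxcr3 in right IFN-alpha-pMC over right control was less stable than those of the ligands, and passed in 8 of 14 alternative analyses. Without the 3 libraries that stood apart, the log2 fold change was 0.81 (adjusted p = 0.0288). The call was lost without library 1 of right control (0.84, adjusted p = 0.124), without library 2 of right IFN-alpha-pMC (0.94, adjusted p = 0.0695) or without library 3 of right IFN-alpha-pMC (0.80, adjusted p = 0.063). It was also lost with right IFN-alpha-pMC and right control fitted alone (0.96, adjusted p = 0.163). With the skeletal muscle score as a covariate it was 0.92 (adjusted p = 0.151), and with an offset for exon length and GC content 0.71 (adjusted p = 0.119). Against right pMC the call was lost with the muscle covariate alone among 14 alternatives (1.06, adjusted p = 0.112).

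The count past the threshold (adjusted p under 0.05) is given beside that over all genes tested. All 4 were called higher in right IFN-alpha-pMC over right control, where 8.78% of the 14849 genes tested were called higher, and all 4 over right pMC, where 8.88% were. On the left the 3 ligands were called higher over control, where 4.05% of genes were, and over pMC, where 2.73% were. These comparisons share the IFN-alpha-pMC libraries of a side and are not independent. How many of all genes tested separated the groups without overlap, as these genes did, was not counted. The median log2 fold change over all genes tested lay between -0.04 and 0.07 in the 4 comparisons. Without the 3 libraries that stood apart, all 3 ligands were again called over control, with log2 fold changes of 1.73, 2.04 and 2.85 for Cxcl9, Cxcl10 and Cxcl11 on the right and 1.91, 1.67 and 2.16 on the left.

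The cells without the IFN-alpha label did not move any of the 4 genes detectably. In right pMC over right control the log2 fold changes were 0.00 ± 0.23 for Cxcl9, -0.01 ± 0.23 for Cxcl10, 0.35 ± 0.37 for Cxcl11 and -0.14 ± 0.27 for Cxcr3. In left pMC over left control they were 0.05 ± 0.23, -0.14 ± 0.23, 0.12 ± 0.40 and 0.17 ± 0.27 in the same order. The edgeR test called 0 of 14849 genes on either side, a background of 0%, and with an unadjusted p under 0.05 there were 359 genes on the right and 119 on the left, none of them among the 4. DESeq2 called 2 and 1 genes, none of the 4. The count on the right depended on the 3 libraries that stood apart: without them edgeR called 5066 genes in right pMC over right control, again none of the 4. For Cxcl9 the 95% interval of right pMC over right control was 0.714- to 1.41-fold and for Cxcl10 0.702- to 1.40-fold, so a change as large as that with IFN-alpha-pMC lay outside both intervals.

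**Figure D2:**
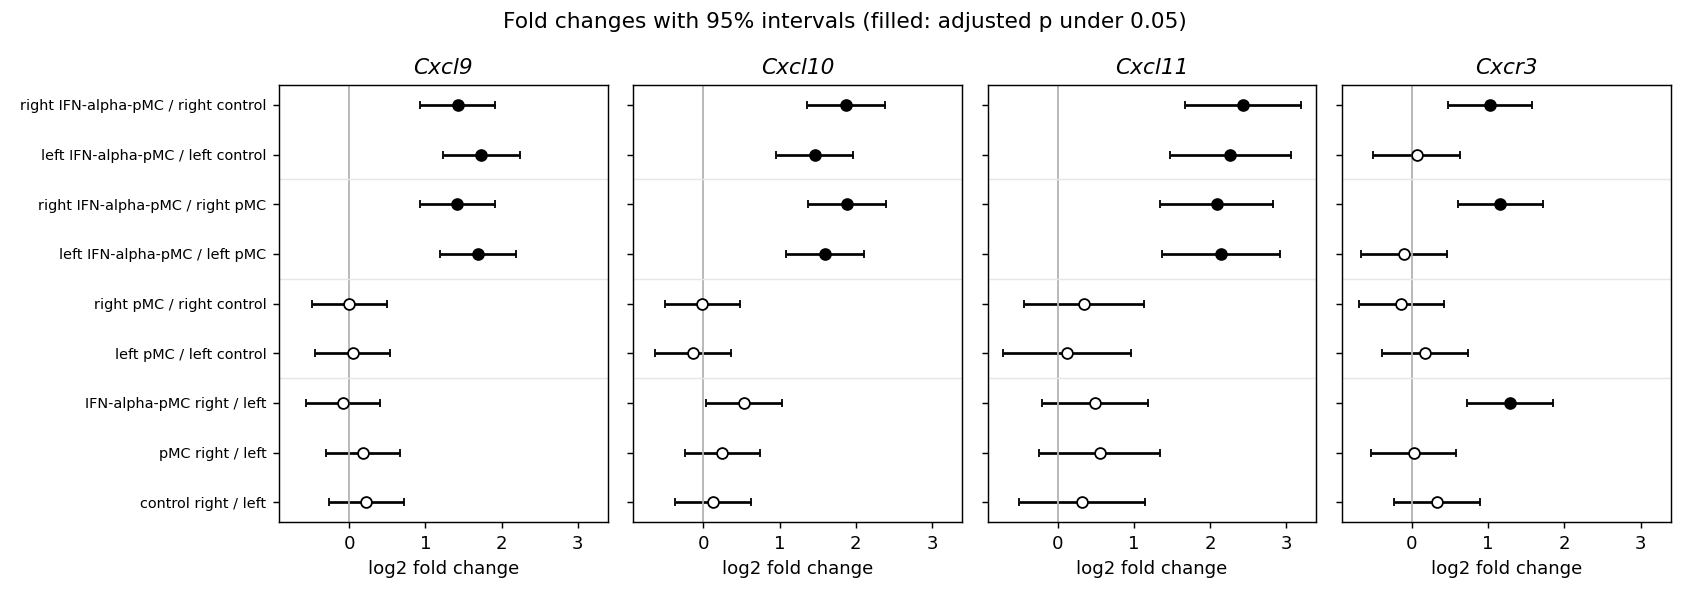
Log2 fold change of each gene with its 95% interval in 9 comparisons, filled where the adjusted p is under 0.05. The ligands are shifted to the right of 0 in all 4 comparisons of IFN-alpha-pMC with pMC or control, whereas Cxcr3 is shifted in the right tumours (1.02 and 1.16) and in IFN-alpha-pMC right over left (1.29).

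The gradient between the injected and the distant side was past the threshold for the receptor and for none of the ligands. Whether the gradients of the genes differed from each other was not tested. Within IFN-alpha-pMC tumours, Cxcr3 was 2.44-fold higher on the right than on the left, a log2 difference of 1.29 ± 0.27 (adjusted p = 0.0137), where 2.49% of genes tested were called higher on the right. For libraries of equal number, which are not known to come from one mouse, its right level was 2.34, 2.28 and 2.74 times the left level. Without the 3 libraries that stood apart the log2 difference was 0.96 (adjusted p = 0.0724), so this call rests in part on them. It was also lost without library 1 of left IFN-alpha-pMC (1.13, adjusted p = 0.0881), without library 2 of right IFN-alpha-pMC (1.21, adjusted p = 0.0558), without library 3 of right IFN-alpha-pMC (1.13, adjusted p = 0.0858) or with the compared groups fitted alone (1.29, adjusted p = 0.078), and it was kept in 10 of 15 alternatives.

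Among the ligands the direction varied. For Cxcl9 the log2 difference between right and left IFN-alpha-pMC tumours was -0.09 ± 0.23 (adjusted p = 0.904), with right levels 1.49, 0.69 and 0.89 times the left. For Cxcl10 it was 0.53 ± 0.23 (unadjusted p = 0.0362, adjusted p = 0.377), with right levels 2.48, 1.05 and 1.32 times the left. For Cxcl11 it was 0.49 ± 0.33 (adjusted p = 0.563), with right levels 1.46, 1.43 and 1.27 times the left. Equal numbers are not known to mark one mouse, so these ratios only describe libraries. None of the 3 ligands passed the test.

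In the other treatments none of the 4 genes had a side difference past the threshold. Right over left, Cxcr3 had log2 differences of 0.02 ± 0.27 in pMC and 0.33 ± 0.27 in control tumours, and the 3 ligands had 0.18 to 0.55 in pMC and 0.13 to 0.32 in control tumours. The edgeR test called 0 genes in either, a background of 0%, with 310 and 116 genes at an unadjusted p under 0.05 and 0 and 0 genes called by DESeq2.

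Whether the treatment effect itself differed between the sides was tested as an interaction. For Cxcr3 the effect of IFN-alpha-pMC over control was 0.96 ± 0.38 larger on the right than on the left on the log2 scale (unadjusted p = 0.0213, adjusted p = 0.637), and over pMC it was 1.27 ± 0.37 larger (unadjusted p = 0.0037, adjusted p = 0.19). Neither passed over all genes tested, so the Cxcr3 effect is not shown to differ between the sides. For Cxcl9, Cxcl10 and Cxcl11 the interaction was -0.31 ± 0.33, 0.41 ± 0.33 and 0.17 ± 0.52 against control. Of all genes tested, edgeR called 0% for the interaction against control, with 918 genes at an unadjusted p under 0.05, 82 called by DESeq2 and 761 called by edgeR without the 3 libraries that stood apart (none of the 4), and 0.391% for that against pMC.

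Levels of different genes can be set side by side only per length. As RPKM, which divides CPM by exon length, Cxcl10 averaged 222 with IFN-alpha-pMC on the right, 153 on the left, and 50.6 to 60.8 in the other 4 groups. Cxcl9 averaged 90.2 with IFN-alpha-pMC on the right, 95.6 on the left, and 28.7 to 33.7 in the others. Cxcl11 averaged 1.5 and 1.07 in right and left IFN-alpha-pMC tumours, and 0.221 to 0.349 in the others, while Cxcr3 averaged 5.60 in right IFN-alpha-pMC tumours and 2.19 to 2.76 in the other 5 groups. The order Cxcl10, Cxcl9, Cxcr3, Cxcl11 therefore held on group means in all 6 groups.

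Of the ligand transcripts per length, Cxcl10 made up 70.8 ± 0.568% in right IFN-alpha-pMC, 63.5 ± 3.22% in right pMC and 64.4 ± 6.04% in right control tumours (SD, n = 3 each). On the left its share was 61.0 ± 2.12% with IFN-alpha-pMC, 62.8 ± 0.793% with pMC and 65.8 ± 3.2% in control tumours. Right control spanned 60.2% to 71.4% and covered nearly the whole range of right IFN-alpha-pMC, 70.3% to 71.4%. Cxcl11 made up 0.26% to 0.473% on group means.

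The balance of the 2 main ligands was tested as the log2 ratio of Cxcl10 to Cxcl9 counts within a library, which does not depend on library scaling. It averaged 0.88 ± 0.04 in right IFN-alpha-pMC, 0.40 ± 0.20 in right pMC and 0.46 ± 0.39 in right control tumours, and 0.24 ± 0.12, 0.35 ± 0.05 and 0.54 ± 0.20 in left IFN-alpha-pMC, left pMC and left control tumours (SD, n = 3 each). Over both sides it differed by 0.06 between IFN-alpha-pMC and control (exact permutation p = 0.71, adjusted p = 0.799 over 9 ratio tests) and by 0.19 between IFN-alpha-pMC and pMC (exact permutation p = 0.13, adjusted p = 0.234). The difference was positive on the right and negative on the left against both: 0.42 and -0.29 against control (exact permutation p = 0.3 and 0.2), and 0.48 and -0.10 against pMC (exact permutation p = 0.1 and 0.3). With 3 libraries against 3 the smallest p possible is 0.1.

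Ligand counts per receptor count were higher in IFN-alpha-pMC tumours. The ratio of summed ligand counts to Cxcr3 counts, not corrected for length, was 125, 71.5 and 60.1 in right IFN-alpha-pMC, 56.1, 47.3 and 66.7 in right pMC and 51.6, 36.8 and 64.4 in right control tumours. In left tumours it was 145, 183 and 146 with IFN-alpha-pMC, 56.7, 42.9 and 44.1 with pMC, and 45.8, 81.5 and 48.3 in control tumours. Left IFN-alpha-pMC tumours did not overlap the other left groups, whereas right IFN-alpha-pMC tumours overlapped both other right groups. Over both sides the log2 ratio was 1.09 higher with IFN-alpha-pMC than in control (exact permutation p = 0.01, adjusted p = 0.0225) and 1.13 higher than with pMC (exact permutation p = 0.01, adjusted p = 0.0225), where 400 arrangements allow a p of 0.005 at least. These arrangements take right and left tumours as separate samples. If both sides came from the same mice, exchanging whole mice would allow no p below 0.1. By side the log2 difference from control was 0.71 on the right (exact permutation p = 0.2) and 1.47 on the left (exact permutation p = 0.1), and from pMC 0.53 on the right (exact permutation p = 0.2) and 1.72 on the left (exact permutation p = 0.1). Between pMC and control it was -0.04 (exact permutation p = 0.855, adjusted p = 0.855).

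T cells are the main known carriers of Cxcr3. All 10 of 10 genes of the T cell receptor complex and T cell lineage were called higher in right IFN-alpha-pMC over right control (median log2 fold change 2.92, against -0.03 over all genes tested), and 6 of 10 in left IFN-alpha-pMC over left control (median 1.32, against 0.07). Over the pMC groups 10 of 10 were called on the right (median 2.68) and 3 of 10 on the left (median 0.91). Their summed level was 170 to 227 CPM in right IFN-alpha-pMC, 19.5 to 37.3 CPM in right pMC and 14.6 to 32.6 CPM in right control tumours, and 48.2 to 69.1 CPM, 26.2 to 37.8 CPM and 16.5 to 31.4 CPM in left IFN-alpha-pMC, left pMC and left control tumours. Cd3g, a chain of the receptor complex, had log2 fold changes over control of 3.44 ± 0.30 on the right (adjusted p = 2.96e-06) and 1.34 ± 0.29 on the left (adjusted p = 0.0182). Cd8b1, a chain of the co-receptor of cytotoxic T cells, had 3.28 ± 0.34 on the right (adjusted p = 1.21e-05) and 1.31 ± 0.34 on the left (adjusted p = 0.0384). Right tumours ran between 1.79 for Cd4 and 3.52 for Cd2, all above the 1.02 of Cxcr3. In bulk tissue, more cells of a type and more RNA per cell cannot be told apart.

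The Cxcr3 count was a smaller fraction of the summed Cd3d, Cd3e, Cd3g and Cd247 counts in IFN-alpha-pMC tumours. The ratio was 0.103, 0.113 and 0.182 in right IFN-alpha-pMC, 0.621, 0.43 and 0.208 in right pMC, and 0.84, 0.582 and 0.377 in right control tumours. In left tumours it was 0.0903, 0.231 and 0.229 with IFN-alpha-pMC, 0.43, 0.351 and 0.396 with pMC, and 0.801, 0.297 and 0.401 in control tumours. All 6 IFN-alpha-pMC libraries lay below the control and pMC libraries of their own side. Over both sides the log2 ratio with IFN-alpha-pMC differed from control by -1.79 (exact permutation p = 0.005, the smallest possible, adjusted p = 0.0225), and differed from pMC by -1.39 (exact permutation p = 0.005, adjusted p = 0.0225). These p-values take right and left tumours as separate samples. If both sides came from the same mice, exchanging whole mice would allow no p below 0.1. By side the difference from control was -2.15 on the right and -1.44 on the left, and from pMC -1.57 on the right and -1.22 on the left (exact permutation p = 0.1 each, the smallest possible). With Cd3e alone below the line the difference from control was -1.38, and with Cd2 plus Cd5 it was -1.77, both with an adjusted p of 0.0225 from the exact permutation test. Without the 3 libraries that stood apart, the difference of the CD3 ratio from control was -1.84 (adjusted exact permutation p = 0.075), where fewer arrangements exist. The T cell genes did not all move alike. On the left, Cd4 had log2 fold changes of 0.24 over control and -0.025 over pMC, near the 0.06 and -0.11 of Cxcr3. On the right, Cd4 had 1.79 and 1.82, against 1.02 and 1.16 for Cxcr3. A ratio of Cxcr3 to Cd4 was not tested.

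**Figure D3:**
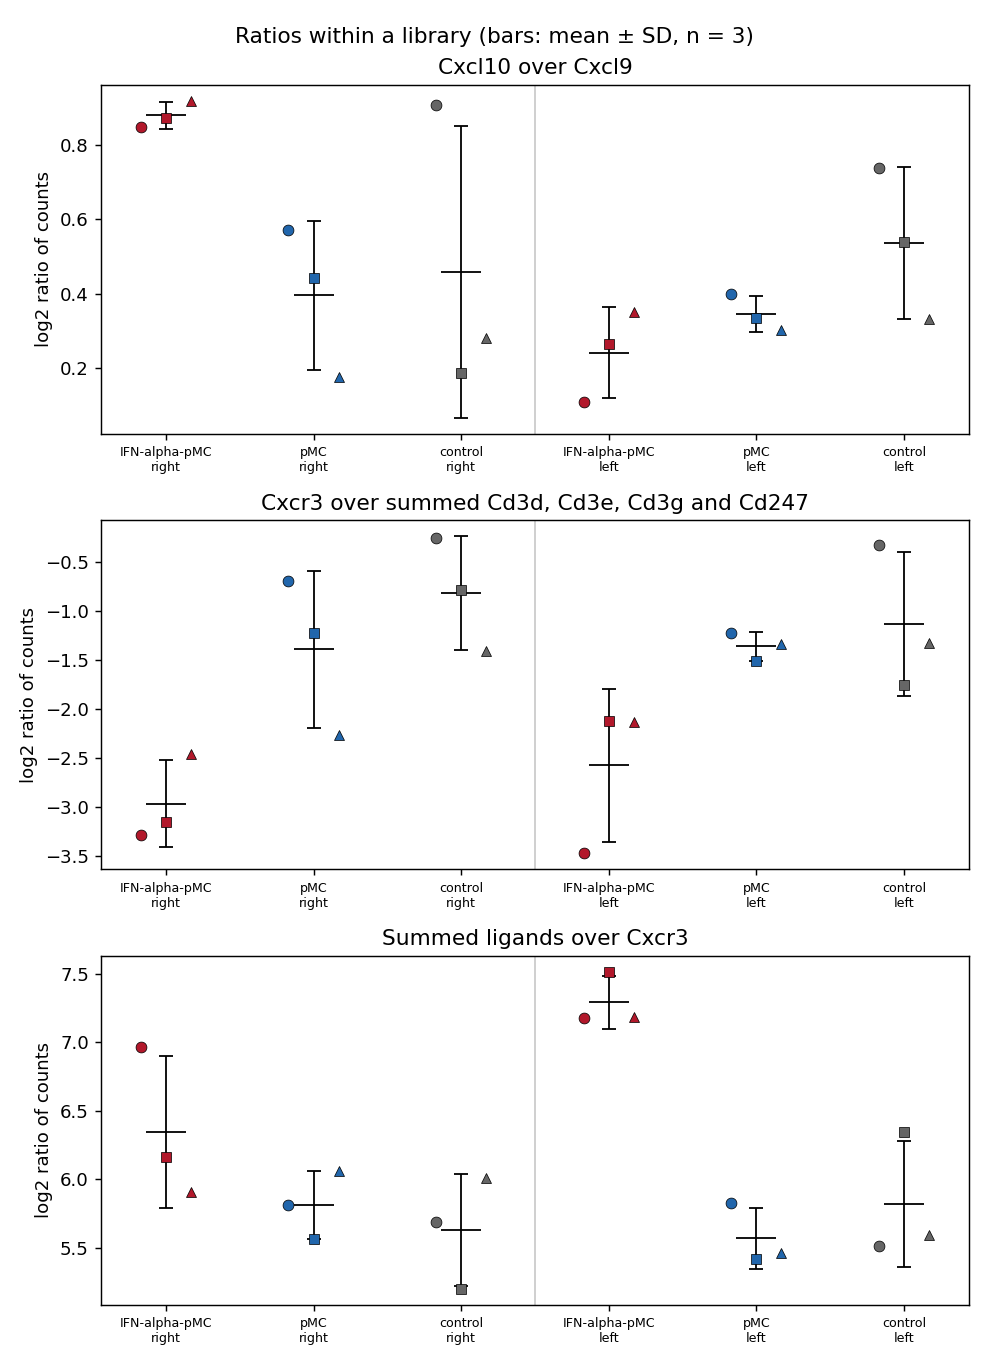
Log2 ratios of counts within each library (3 panels), by treatment and side, with bars for the mean ± SD of 3 libraries. Cxcr3 over the CD3 complex genes is lowest in the IFN-alpha-pMC groups (means of -2.96 on the right and -2.57 on the left, against -0.81 and -1.13 in control), and summed ligands over Cxcr3 is highest in left IFN-alpha-pMC (mean 7.29).

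Genes that act upstream of the ligands moved in part. Of 15 tested genes of interferon signalling, 8 were called higher and none lower in right IFN-alpha-pMC over right control (median log2 fold change 0.57), and 4 higher and none lower in left IFN-alpha-pMC over left control (median 0.23). Of all genes tested, 2.01% were called lower over control on the right and 2.6% on the left. Over the pMC groups 8 of the 15 were called higher on the right and 4 on the left. Ifng, the gene of interferon gamma, rose by 3.35 ± 0.40 on the right (adjusted p = 3.94e-05) and by 2.26 ± 0.41 on the left (adjusted p = 0.00961), and averaged 7.09 ± 0.946 CPM in right IFN-alpha-pMC, 0.802 ± 0.32 CPM in right pMC and 0.674 ± 0.515 CPM in right control tumours. Irf1, a transcription factor downstream of interferon gamma, rose by 1.23 ± 0.18 on the right (adjusted p = 0.00015) and 1.07 ± 0.18 on the left (adjusted p = 0.00538). Irf7, a factor of the type I interferon response, rose by 2.16 ± 0.18 on the right (adjusted p = 2.8e-06) and 1.03 ± 0.18 on the left (adjusted p = 0.0065), and Irf8, a factor of myeloid cells, rose by 1.84 ± 0.21 and 1.11 ± 0.21 (adjusted p = 2.58e-05 and 0.0103).

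Of 10 genes of the NF-kappa-B inputs, 4 were called higher over control on the right (median log2 fold change 0.72) and 1 on the left (median 0.14), and over pMC 5 on the right and 2 on the left. The cytokine gene Tnf was called on both sides, with 3.22 ± 0.35 on the right (adjusted p = 1.78e-05) and 1.71 ± 0.36 on the left (adjusted p = 0.0156). Tnfaip3, which encodes the feedback inhibitor A20, rose by 1.81 ± 0.24 on the right (adjusted p = 7.79e-05) and had 0.62 ± 0.24 on the left (adjusted p = 0.0887). Tnfrsf1b, a receptor for TNF, rose by 1.61 ± 0.29 on the right (adjusted p = 0.00103) and had 0.14 ± 0.28 on the left (adjusted p = 0.729).

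Among 11 genes for CXCR3 signalling, ligand processing and decoy binding, 5 were called higher on the right (median log2 fold change 0.70 over control) and none on the left (median 0.07), over control as over pMC. Arrb2, a beta-arrestin that binds activated chemokine receptors, averaged 49.4 ± 4.45 CPM in right IFN-alpha-pMC, 23.4 ± 2.1 CPM in right pMC and 23.5 ± 1.52 CPM in right control tumours. Its log2 fold change over control was 1.07 ± 0.13 on the right (adjusted p = 3.25e-05) and 0.02 ± 0.13 on the left (adjusted p = 0.923), and like Cxcr3 it was higher in right than in left IFN-alpha-pMC tumours, by 0.99 ± 0.13 (adjusted p = 0.000903). Dpp4, the peptidase that trims CXCL9 to CXCL11 at their start, rose by 1.45 ± 0.29 on the right (adjusted p = 0.00305) and had 0.80 ± 0.30 on the left (adjusted p = 0.0833). Ackr1, an atypical receptor that binds many inflammatory chemokines, rose by 2.34 ± 0.55 on the right (adjusted p = 0.0101), from few counts (54 over the 3 right IFN-alpha-pMC libraries and 10 over the 3 right control libraries). Ackr3, an atypical receptor that removes CXCL11 and CXCL12, had 0.16 ± 0.31 on the right (adjusted p = 0.828) and 0.91 ± 0.32 on the left (adjusted p = 0.0721).

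Type 1 lymphocytes are the T and NK cells that make interferon gamma. Of 10 transcription factor, receptor and effector genes, 9 were called higher in right IFN-alpha-pMC over right control (median log2 fold change 3.13) and 5 in left IFN-alpha-pMC over left control (median 1.25). Over the pMC groups 9 were called on the right (median 2.75) and 2 on the left (median 1.01). Tbx21 encodes T-bet, which is known to switch on Cxcr3 in T cells. It averaged 7.35 ± 1.75 CPM in right IFN-alpha-pMC, 0.899 ± 0.108 CPM in right pMC and 0.70 ± 0.341 CPM in right control tumours, and 1.48 ± 0.485 CPM, 0.839 ± 0.145 CPM and 0.852 ± 0.0638 CPM in left IFN-alpha-pMC, left pMC and left control tumours (SD, n = 3 each). Its log2 fold change over control was 3.38 ± 0.34 on the right (adjusted p = 1.1e-05) and 0.81 ± 0.35 on the left (adjusted p = 0.115), and right over left within IFN-alpha-pMC it was 2.29 ± 0.32 (adjusted p = 0.00129). The cytotoxic granule genes Gzmb, Prf1 and Gzma had 5.63 ± 0.46, 4.30 ± 0.37 and 5.64 ± 0.51 on the right (adjusted p = 2.76e-06, 2.96e-06 and 4.96e-06).

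Of 6 NK cell genes, 6 were called higher over control on the right (median log2 fold change 2.99) and 5 on the left (median 1.93), and over pMC 6 on the right (median 2.44) and 1 on the left (median 1.49). Of 11 macrophage and monocyte genes, 10 were called higher over control on the right (median 1.55) and 6 on the left (median 0.95), and over pMC 10 on the right (median 1.76) and 3 on the left (median 0.66). Their summed level was 1650 to 1789 CPM in right IFN-alpha-pMC, 523 to 642 CPM in right pMC and 425 to 822 CPM in right control tumours. On the left it was 914 to 923 CPM in IFN-alpha-pMC, 481 to 647 CPM in pMC and 452 to 566 CPM in control tumours. Of 8 fibroblast genes 2 were called higher over control on the right and 3 on the left, and over pMC 4 on the right and 1 on the left. Of 8 endothelial genes none was called higher over control and 1 was called lower on the right, where 2.01% of all genes tested were called lower: Cdh5, a junction protein of vessels, with -1.09 ± 0.33 (adjusted p = 0.0425), and none was called over control on the left or over pMC on either side. All these cell types can hold the receptor or make the ligands, and the part that their amounts, or the skeletal muscle in the samples, had in the results above was not tested, beyond the fit with a muscle covariate. In that fit all 3 ligands stayed past the threshold over control on both sides. The muscle score (mean log2 CPM) was 4.89 to 7.51 in IFN-alpha-pMC libraries. In the others it was -1.23 to 4.07, except for 5.69 in library 1 of right control. With so little overlap the fit can hardly separate muscle from treatment.

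**Figure D4:**
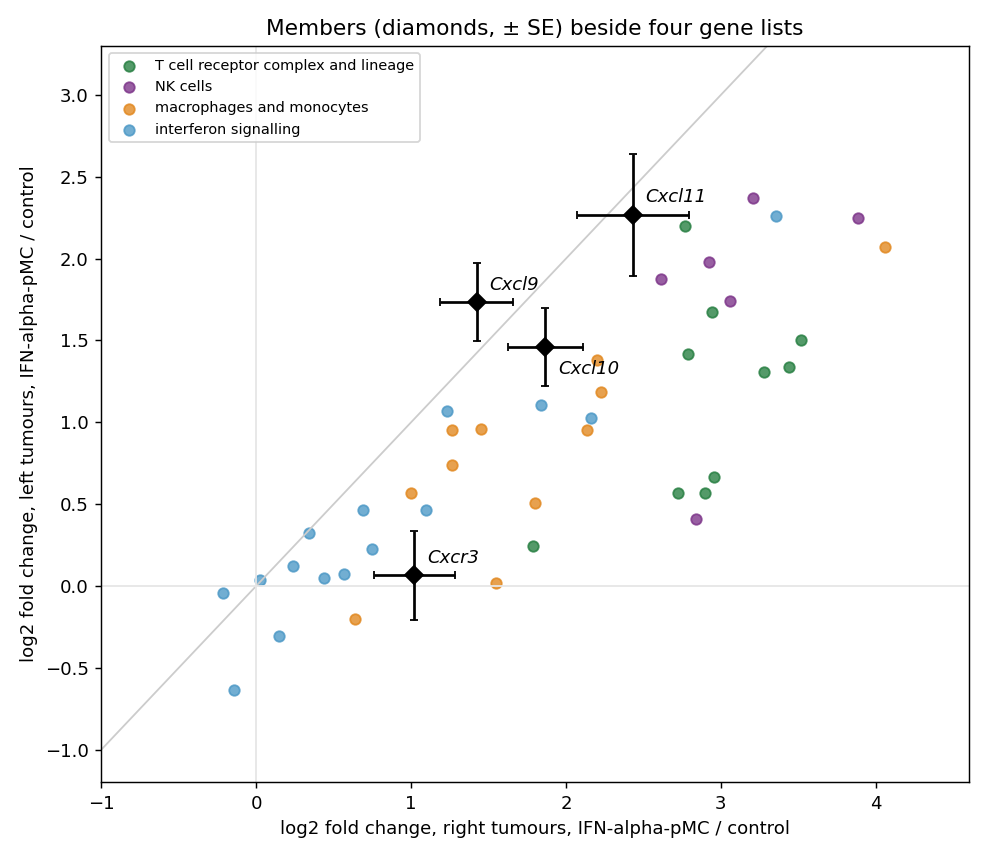
Log2 fold change of IFN-alpha-pMC over control in left tumours (vertical axis) against right tumours (horizontal axis) for the 4 genes (diamonds, bars ± SE) and for the tested genes of 4 lists (circles), with the line of equal change. The ligands lie near the line, at 1.42 and 1.73 for Cxcl9 (right and left). Cxcr3 (1.02 and 0.06) lies below it, as does every T cell, NK cell, and macrophage and monocyte gene.

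Other chemokine receptors and ligands that draw lymphocytes were set beside the 4 genes. Of 3 other CXC receptor genes tested, 1 was called higher over control on each side. Over pMC 1 was called on the right and none on the left. The gene called over control was Cxcr6, a receptor of tissue-resident lymphocytes. Cxcr6 rose by 3.01 ± 0.59 on the right (adjusted p = 0.00224) and 2.73 ± 0.61 on the left (adjusted p = 0.0225). Its ligand gene Cxcl16 rose by 1.59 ± 0.28 and 1.28 ± 0.28 (adjusted p = 0.00085 and 0.0191). Of 4 other CXC chemokine genes tested, 2 were called higher on each side, Cxcl16 and Cxcl14, which encodes a chemokine of skin and other epithelia and rose by 2.03 ± 0.46 on the right and 2.44 ± 0.48 on the left (adjusted p = 0.00678 and 0.0115).

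The 3 ligand genes lie together on chromosome 5, and their neighbours were looked at for a shared shift. Of 5 tested neighbours 2 were called higher on the right and none on the left (median log2 fold changes 0.46 and 0.19). Naaa, which encodes a lysosomal amidase, rose by 1.24 ± 0.18 on the right (adjusted p = 0.000197) and had 0.51 ± 0.18 on the left (adjusted p = 0.0751). Scarb2, which encodes a lysosomal membrane protein, rose by 0.46 ± 0.14 on the right (adjusted p = 0.0449) and had 0.25 ± 0.14 on the left (adjusted p = 0.205).

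The genes whose profiles over the 18 libraries were most like each of the 4 were named by the smallest root mean square (RMS) difference of centred log2 CPM. This is a description of libraries that share groups and depth. For Cxcl9 they were Gbp2 (0.174), Zbp1 (0.197), Gbp4 (0.214), Gbp3 (0.225) and Gm12185 (0.228), against a median of 0.832 over all genes; Gbp2, Gbp3 and Gbp4 encode interferon-induced guanylate-binding proteins and Zbp1 a sensor of Z-form nucleic acid. For Cxcl10 they were Cxcl9 (0.262), Gbp2 (0.271), Plau (0.28), Apol10b (0.286) and Gm12185 (0.299), against a median of 0.904. For Cxcl11 they were Fgl2 (0.316), Isg20 (0.324), Calhm6 (0.356), Serpina3g (0.357) and Gm12185 (0.362), against a median of 1.12, and Isg20 encodes an interferon-induced exonuclease.

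For Cxcr3 the 5 genes were P2ry6 (0.19), Blnk (0.233), Arhgap25 (0.253), Gramd4 (0.259) and Rab3il1 (0.263), against a median of 0.637. P2ry6 encodes a receptor for extracellular UDP and Blnk an adaptor of B cell receptor signalling. The cell marker lists, looked at after their values were seen, were spread widely in distance from Cxcr3. The 11 macrophage and monocyte genes ran between rank 6 for Adgre1 (0.268) and rank 14660 for Ly6c2 (1.34), with Csf1r at rank 106 (0.359), Itgam at rank 6410 (0.609) and Fcgr1 at rank 10374 (0.742). Of the 10 T cell genes Cd4 was at rank 185 (0.384), and the other 9 ran between rank 8773 for Cd5 (0.681) and rank 14232 for Cd3d (1.07). The 6 NK cell genes ran between rank 8596 for Il2rb (0.675) and rank 14612 for Klre1 (1.27). Among the 4 genes themselves Cxcl9 and Cxcl10 were 0.262 apart, Cxcl9 and Cxcl11 0.447, Cxcl10 and Cxcl11 0.445, and Cxcr3 was 0.699, 0.667 and 0.923 from Cxcl9, Cxcl10 and Cxcl11.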

How the data were processed

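The deposited files hold raw counts of reads per Ensembl gene ID, one file per library, made by the authors without normalization, judging by their whole numbers. HTSeq 0.10.0, HISAT2 2.1.0, Trimmomatic 0.36, CASAVA 1.8.2, bcl2fastq, FastQC, DESeq2 1.20.0 and the build mm9 are named, per the submitters' processing notes. Not given in the sources used here are the annotation release and the strand setting of the counting. Of everything tallied in the files, 60.2% to 70.7% were assigned to a gene, 4.04% to 12.2% to no feature and 18.4% to 24.3% were not uniquely aligned. Those summary rows were left out of library totals and tests.

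Groups came from the sample titles. IDs were named from a gene table, which matched 32897 of 37620. The 18 libraries were fitted together in edgeR 4.0.16 (R 4.3.3; TMM, filterByExpr, quasi-likelihood F test, 6 group means, 12 residual degrees of freedom), with Benjamini-Hochberg adjustment over 14849 genes in each of 11 comparisons and a threshold of 0.05. A standard error is the log2 fold change divided by the square root of F. CPM are counts divided by the TMM-scaled library total and multiplied by 1000000. RPKM used the merged exon length in GENCODE M21. Log2 ratios within a library used a pseudocount of 0.5 and two-sided exact permutation tests over samples (SciPy 1.17.1), with right and left as separate samples and adjustment over 9 tests. A count of 3 corresponds to 0.128 to 0.209 CPM; floors and counting errors cover counting error only, since reads without molecular identifiers are not independent molecules. The edgeR step was tested on simulated data for right IFN-alpha-pMC over right control, with 14584 genes. It called 44.4% of 99 genes changed 2-fold and 95.9% of 98 genes changed 4-fold. Of all its calls, 2.1% (3 genes) were of unchanged genes. Every simulated gene had the same dispersion and no simulated library stood apart, so these rates need not hold for the real data. No libraries of a group looked like the same library deposited more than once.

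The 4 genes and all gene lists were chosen with earlier results of these data known. Of each list, up to 3 genes with the lowest p in right IFN-alpha-pMC over right control were named, and Ifng, Irf1, Tbx21, Dpp4, Ackr3 and Art3. Some genes and 1 gene list covered by this rule are not reported here. Promoters are from RefSeq (GRCm38.p6); since the counts were made on mm9, no other coordinates are given. The Cxcl11 promoter is not used here. Alternatives were DESeq2 1.42.0, DESeq2 size factors in edgeR, no filter on low counts, fits of the compared groups alone, a block by number, a muscle covariate, a length and GC correction (known for 96.9% of genes), and leaving out libraries.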

Additional observations from a re-analysis of the deposited data

How the results depend on the processing

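Of 684 refitted fold changes of the 4 genes, 16 lost the threshold, 46 that were not called changed sign, and none that was called changed direction. The 3 ligands stayed called in IFN-alpha-pMC over control on both sides under all 14 alternatives (largest adjusted p = 0.048, for Cxcl11 on the left). Between right and left IFN-alpha-pMC tumours, 1 of the 4 genes was called, but 0 without the 3 libraries that stood apart, 0 with the compared groups fitted alone, and 0 to 1 when single libraries were left out. Without the 3 libraries, the log2 ratio of Cxcr3 to CD3 genes differed between IFN-alpha-pMC and control by -1.84 (adjusted exact permutation p = 0.075, from fewer arrangements). Leaving out single libraries gave -1.95 to -1.57 for it, and 0.97 to 1.24 for ligands over Cxcr3 in IFN-alpha-pMC minus pMC, whose adjusted exact permutation p rose to 0.0563 without library 2 of right pMC. Counts over all genes moved more: 1601 in right IFN-alpha-pMC over right control became 582 (compared groups alone) to 8175 (without the 3 libraries), and 987 in left IFN-alpha-pMC over left control became 121 (muscle covariate) to 4331 (without the 3 libraries), or 86 to 494 without single libraries. Right IFN-alpha-pMC over right pMC ranged between 747 and 4286 (1497 as reported), left IFN-alpha-pMC over left pMC between 74 and 4142, or 33 to 414 without single libraries (578 as reported), and right over left IFN-alpha-pMC between 190 and 863, or 141 to 360 without single libraries (375 as reported). Right pMC over right control had 0 genes called, but 5066 without the 3 libraries. The side differences of IFN-alpha-pMC had 0 against control, up to 761 without the 3 libraries, and 58 against pMC, 29 to 257 (DESeq2), or 0 to 85 without single libraries. The causes were not tested. Deviations of same-numbered right and left libraries correlated at -0.25 to 0.60, over 0.1 for 5 of 9 numbers and above both correlations with other numbers for 5 of 9. Whether equal numbers mark one mouse is not known, and no pairing was assumed in the main fit. With number as a replicate block, the 4 and 3 genes called over control on the right and left, and the 1 called between sides, were unchanged in number. Cxcl11 had 10 to 144 counts a library and Cxcr3 39 to 287, which limits their precision.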
